A study of Mus musculus with 2 samples.

Results

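Usp2, Bhlhe41, Bhlhe40, Glul, Cyp2f2, Slc6a6, Rgcc and Ces1d were followed through the epithelial cells of the mouse tongue at the start and at the end of the light phase. They are 8 of the 32285 genes in the count matrices, found by symbol, and each had 1 row in both matrices. The genes were proposed as metabolic and clock output genes that were higher in the evening, and they were chosen by their ZT12 against ZT0 values in these same data. Those values are therefore given as a description, and nothing rests on them. The label held unevenly: Bhlhe40 was 1.41 times and Ces1d 1.13 times its ZT0 level at ZT12 over all cells, and Ces1d was lower at ZT12 within basal-like cells.

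The study profiled tongue epithelium of male B57BL/6 mice aged 8 to 12 weeks by droplet single-cell RNA sequencing of transcript 3' ends. One group was taken at ZT0, when lights come on in zeitgeber time, and the other at ZT12, when they go off. Both groups share the same strain, sex and age range, carry no labelled mutation or treatment, and went through TrypLE digestion and sorting of cells that excluded the dead-cell dye 7-AAD. Each time is 1 library, and how many mice went into a library is not stated in the labels.

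In the circadian clock of mammals, the activators Bmal1 and Clock bind E-box sequences, and the proteins they induce, among them the repressors Bhlhe40 and Bhlhe41, act back on the same sites. Factors driven by the clock then carry rhythm to output genes in metabolism, transport and protein turnover, with a set of outputs that differs from tissue to tissue. Stratified tongue epithelium renews from a basal layer marked by Krt5 and Krt15, whose daughters move up and switch to Krt13 and Krt4.

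The deposited matrices held 1726 barcodes and 49826740 unique molecular identifiers (UMIs, each 1 captured transcript) at ZT0, and 2819 barcodes and 67901140 UMIs at ZT12. After filtering, 1593 cells with a median of 28401 UMIs remained at ZT0 and 2620 cells with a median of 23088 UMIs at ZT12, and the libraries had 2 barcodes in common. Clusters made without the 8 genes and without clock genes were named from marker lists. The basal-like class had 433 cells from ZT0 and 703 from ZT12, and the differentiated-like class 500 and 1189. The summed level of 10 basal markers was 24002 CPM (UMIs per 1000000 UMIs) at ZT0 and 29786 CPM at ZT12 in basal-like cells, against 3019 and 4881 CPM in differentiated-like cells. All 11 differentiated markers together gave 5245 and 6261 CPM in basal-like cells, and 69538 and 70562 CPM in differentiated-like cells. Different clusters held much of each class at the 2 times. Cluster 10 of the basal-like cells, led by Cxcl9 and Tnc, had 196 cells at ZT0 and 5 at ZT12, while cluster 1, led by S100a9 and Smoc2, had 26 and 321. Among the differentiated-like cells, cluster 12, led by Chil4 and interferon-induced genes such as Isg15, had 155 cells at ZT0 and 1 at ZT12. Cluster 0, with Lgi2 and Dlk1, had 89 and 474. Since time and library cannot be told apart here, no test between times was possible. Every level is the gene's CPM over a set of cells with its exact Poisson interval, every ratio has an exact conditional interval, and all such intervals are at 95% and cover counting error only.

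The promoters shown are those of the genes with a clock-linked or nuclear receptor motif in the window from 250 bases before to 50 bases after the start of transcription, taken from RefSeq on GRCm38.p6. The motifs searched on both strands were the E-box CACGTG, the D-box TTATGTAA or TTATGCAA, and AGGTCA, the letters bound by many nuclear receptors. Promoters of Glul, Bhlhe41, Cyp2f2, Usp2 and Rgcc were matched, 5 of the 8; those of Bhlhe40, Slc6a6 and Ces1d are not shown. Bhlhe41, on the minus strand at chr6:145865371-145865670, had 1 E-box beginning 153 bases before the start. Glul, on the plus strand at chr1:153899679-153899978, had 1 AGGTCA 57 bases before it, and Cyp2f2, on the plus strand at chr7:27119705-27120004, had 1 AGGTCA 221 bases before it. Capitals mark those motifs.
Bhlhe41: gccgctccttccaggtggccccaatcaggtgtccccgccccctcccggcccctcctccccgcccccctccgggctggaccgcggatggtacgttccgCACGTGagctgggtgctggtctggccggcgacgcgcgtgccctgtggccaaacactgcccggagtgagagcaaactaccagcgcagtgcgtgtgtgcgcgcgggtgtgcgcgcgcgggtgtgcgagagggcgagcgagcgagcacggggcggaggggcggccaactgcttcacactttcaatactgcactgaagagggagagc
Glul: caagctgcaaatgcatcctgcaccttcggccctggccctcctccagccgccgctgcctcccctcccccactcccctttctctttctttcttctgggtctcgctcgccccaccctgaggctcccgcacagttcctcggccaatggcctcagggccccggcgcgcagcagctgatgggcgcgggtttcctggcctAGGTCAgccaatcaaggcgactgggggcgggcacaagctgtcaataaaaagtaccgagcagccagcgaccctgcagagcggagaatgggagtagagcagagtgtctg
Cyp2f2: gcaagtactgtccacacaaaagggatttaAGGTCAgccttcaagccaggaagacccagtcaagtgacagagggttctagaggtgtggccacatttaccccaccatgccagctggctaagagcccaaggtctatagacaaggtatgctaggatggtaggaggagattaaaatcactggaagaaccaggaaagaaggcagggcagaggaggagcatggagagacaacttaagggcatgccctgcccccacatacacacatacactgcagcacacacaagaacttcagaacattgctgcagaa
Of 32851 mouse promoters of the same length, 7.15% held the E-box, 1.66% a D-box and 16.3% AGGTCA. The Usp2 and Rgcc windows held none of these letters. The Usp2 window, chr9:44084670-44084969, lies inside the annotated gene, at a RefSeq start downstream of the gene's first annotated base, and other starts of Usp2 were not searched. A match is a stretch of letters in a reference window and was not tested for binding.

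Within each library, the 8 genes divided by cell layer. Cyp2f2, Rgcc and Ces1d were at least 2 times higher in differentiated-like than in basal-like cells at both times, and Slc6a6, Glul and Bhlhe41 were at least 2 times higher in basal-like cells at both times. Usp2 and Bhlhe40 leaned to differentiated-like cells by a smaller amount, with ratios of 2.77 (2.30 to 3.36) and 2.04 (1.82 to 2.28) at ZT0 and 1.73 (1.60 to 1.86) and 1.66 (1.53 to 1.79) at ZT12. These directions were the same under the 6 alternative ways of drawing the classes, for all 8 genes.

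**Figure D1:**
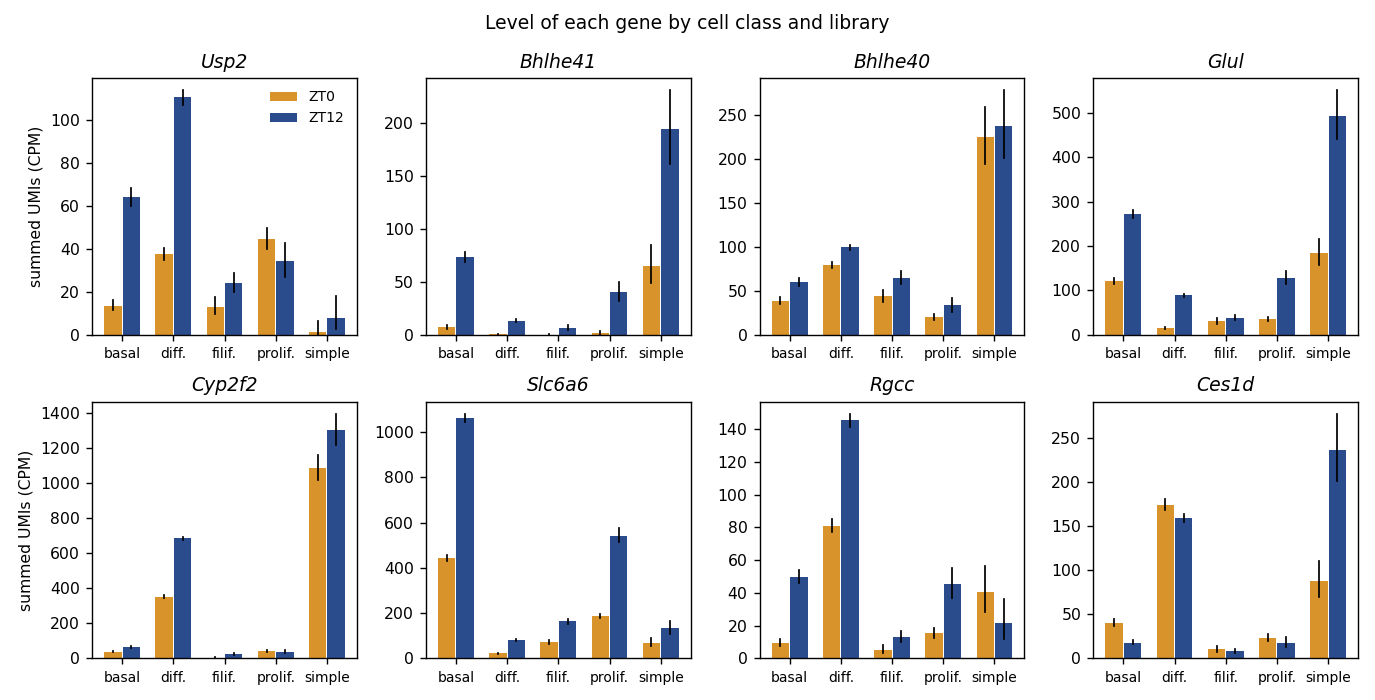
Level of each gene in 5 cell classes (horizontal axis: basal-like, differentiated-like, filiform-like, proliferating-like and simple epithelial-like) as CPM (vertical axis from 0, its own scale in each panel). Bars are ZT0 and ZT12, 1 library each, and lines are exact Poisson 95% intervals. Slc6a6 is highest in basal-like cells and Cyp2f2 in simple epithelial-like cells, and in the differentiated-like class 7 of 8 genes are higher at ZT12.

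Bhlhe41 (chr6:145858243-145865558, minus strand, mm10) encodes Dec2, a basic helix-loop-helix repressor of E-box-driven transcription. In basal-like cells it had 72 UMIs at ZT0, 7.30 CPM (5.71 to 9.20), and 970 at ZT12, 73.5 CPM (68.9 to 78.3), a ratio of 10.1 (7.92 to 12.97). In differentiated-like cells 7 UMIs at ZT0 gave 0.356 CPM (0.143 to 0.733), and 499 at ZT12 gave 13.3 CPM (12.1 to 14.5), a ratio of 37.3 (17.97 to 93.3). Of the 499 evening UMIs, 334 were in cluster 0, 28.1 CPM, in which Krt5 was still at 2680 CPM. In clusters 3, 4, 11 and 13 the ZT12 level was 7.53, 5.20, 8.16 and 2.35 CPM. With each library clustered alone, the differentiated-like log2 ratio was 2.63 in place of 3.40. The Bhlhe41 level was 20.5 (9.47 to 52.9) times higher in basal-like than in differentiated-like cells at ZT0 and 5.54 (4.97 to 6.18) times at ZT12. Among basal-like clusters at ZT12 it stood at 115 CPM in cluster 1, 42.2 in cluster 2, led by Nppc and Pappa, and 31.4 in cluster 7, led by Npnt and Frem2. All 14 clusters with at least 20 cells from each library had a higher level at ZT12, and in 13 of them the interval of the ratio lay above 1. The highest level was outside the stratified layers, in the simple epithelial-like cells led by Ltf and Wfdc18, at 64.9 and 194 CPM, where the ratio was 2.98 (2.16 to 4.16) in 35 cells per library.

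Bhlhe40 (chr6:108660629-108666925, plus strand) encodes Dec1, the paralog of Dec2. Unlike Bhlhe41 it was read in the upper layers at both times: basal-like cells had 38.8 CPM (35.1 to 42.9) at ZT0 and 59.8 CPM (55.7 to 64.1) at ZT12, and differentiated-like cells 79.1 CPM (75.2 to 83.1) and 99.0 CPM (95.9 to 102). The ratios were 1.54 (1.36 to 1.74) and 1.25 (1.18 to 1.33), so the evening excess was small in both classes. In basal-like cluster 1, with 26 ZT0 cells, the level was 84.2 CPM at ZT0 and 83.8 CPM at ZT12, while in cluster 7 it was 16.1 and 35.8 CPM. Clusters 1 and 10, which were joined after being seen, together had 57.3 and 84.3 CPM, a ratio of 1.47 (1.27 to 1.71). Of 14 clusters, 12 had a higher level at ZT12, but the interval lay above 1 in only 6 and below 1 in 1, unnamed cluster 5. As with its paralog, simple epithelial-like cells had more of it than any keratinocyte class, 225 and 237 CPM, with a ratio of 1.05 (0.847 to 1.31).

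Usp2 (chr9:44067021-44095627, plus strand) encodes a deubiquitinase that removes ubiquitin from clock and cell cycle proteins. Basal-like cells had 133 UMIs at ZT0, 13.5 CPM (11.3 to 16.0), and 844 at ZT12, 64.0 CPM (59.7 to 68.4), a ratio of 4.74 (3.94 to 5.74). In differentiated-like cells the levels were 37.4 CPM (34.7 to 40.2) and 110.4 CPM (107 to 114), a ratio of 2.95 (2.73 to 3.20). The evening level was uneven inside the basal layer. At ZT12 it was 117 CPM in cluster 1 but 18.4 CPM in cluster 2 and 20.9 CPM in cluster 7, whose ZT0 levels were 8.56 and 10.2 CPM. The ratio was 2.15 (1.36 to 3.54) in cluster 2 and 2.06 (1.22 to 3.59) in cluster 7, less than the class ratio. Clusters 1 and 10 joined, which share none of their 10 leading genes, gave 6.58 (5.26 to 8.32). Among differentiated-like clusters, cluster 0, in which Krt5 was still at 2680 CPM, went from 37.8 to 146 CPM, the highest of any cluster at ZT12. Proliferating-like cells went the other way, with 44.5 CPM (39.8 to 49.5) at ZT0 and 34.3 CPM (27.0 to 42.9) at ZT12, a ratio of 0.771 (0.593 to 0.993). Simple epithelial-like cells had 1 UMI at ZT0 and 5 at ZT12, 1.16 and 7.75 CPM.

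Glul (chr1:153899944-153909723, plus strand) encodes glutamine synthetase, which joins ammonia to glutamate. Basal-like cells had 121 CPM (115 to 128) at ZT0 and 273 CPM (264 to 282) at ZT12, a ratio of 2.25 (2.11 to 2.404). Differentiated-like cells had 15.1 CPM (13.4 to 16.9) and 89.1 CPM (86.2 to 92.2), a ratio of 5.91 (5.25 to 6.68). In the morning the transcript was 8.04 (7.07 to 9.16) times higher in basal-like cells, and in the evening 3.06 (2.92 to 3.21) times. The named basal-like clusters fell into a high and a low group. Clusters 1 and 10 together had 218 CPM at ZT0 and 539 CPM at ZT12, against 26.2 and 49.4 CPM in clusters 2 and 7, ratios between the groups of 8.34 (6.94 to 10.1) and 10.9 (9.78 to 12.2). Unnamed cluster 8, which scored highest for basal-like, lay between the groups, at 76.2 and 122 CPM. In differentiated-like cells the evening level lay mostly in cluster 0, 53.8 CPM at ZT0 and 208 CPM at ZT12. Cluster 0 held 89 of the 500 differentiated-like cells at ZT0 and 474 of the 1189 at ZT12, and the part of that difference in the class ratio was not tested. The class log2 ratio was 1.91 with clusters weighted alike and 1.71 with each library clustered alone, in place of 2.49. Clusters 3, 4, 11 and 13 had less Krt5 than cluster 0, and their Glul levels at ZT12 were 13.8, 41.6, 56.8 and 5.63 CPM. The ratio was above 1 in all 14 clusters with enough cells, with an interval above 1 in 11.

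Slc6a6 (chr6:91684053-91759066, plus strand) encodes the sodium- and chloride-dependent taurine transporter, which brings the osmolyte taurine into cells. It marked the basal layer at both times, with 445 CPM (432 to 458) at ZT0 and 1062 CPM (1045 to 1080.2) at ZT12, a ratio of 2.39 (2.31 to 2.47). Differentiated-like cells had 22.0 CPM (20.02 to 24.2) and 81.7 CPM (78.8 to 84.6), a ratio of 3.70 (3.35 to 4.11). In the 4 differentiated-like clusters with enough cells, ratios ran from 2.53 to 3.09. Cluster 0 had 70.5 CPM at ZT0 and 188 CPM at ZT12. It held 89 of the 500 class cells at ZT0 and 474 of the 1189 at ZT12. The part of that difference in the class ratio was not tested. With each library clustered alone, the class log2 ratio was 0.61 in place of 1.84. The basal level was 20.2 (18.3 to 22.3) times the differentiated level at ZT0 and 13.01 (12.5 to 13.5) times at ZT12. Cluster 7 was the highest cluster in both libraries, 685 and 1603 CPM. Of the 8 genes, only Slc6a6 was lower in clusters 1 and 10 joined than in clusters 2 and 7 joined. The factor was 0.711 (0.669 to 0.755) at ZT0 and 0.815 (0.788 to 0.843) at ZT12. Cluster 2 alone had 391 CPM (368 to 415) at ZT0 and 953 CPM (925 to 980) at ZT12. Its intervals overlapped those of clusters 1 and 10 joined, 369 CPM (352 to 387) and 946 CPM (922 to 971). All 14 clusters had a higher level at ZT12, and the ratios ran from 1.42 to 4.82.

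Cyp2f2 (chr7:27119909-27133660, plus strand) encodes a cytochrome P450 best known from club cells of the mouse airway, where it oxidises naphthalene. Differentiated-like cells had 351 CPM (342 to 359) at ZT0 and 684 CPM (675 to 692) at ZT12, a ratio of 1.95 (1.90 to 2.00). The gene was higher at ZT12 in all 4 differentiated-like clusters with enough cells, from 60.6 to 319 CPM in cluster 3, led by Slc7a11, and from 374 to 795 CPM in cluster 4, led by Serpinb12. Cluster 11, with Sprr3 and Crct1, reached 1081 CPM at ZT12 and had only 18 cells at ZT0. The simple epithelial-like cells had still more, 1085 CPM (1017 to 1157) and 1301 CPM (1215 to 1392). In basal-like cells the levels were 37.8 CPM (34.1 to 41.9) and 64.0 CPM (59.7 to 68.4), a ratio of 1.69 (1.49 to 1.91). Single clusters differed from it. The ratio was 4.51 (2.05 to 11.8) in cluster 2, from 2.497 to 11.3 CPM, on only 7 UMIs at ZT0 and 55 at ZT12. In cluster 1 it was 0.405 (0.348 to 0.473), from 319 to 129 CPM, with 26 ZT0 cells. Clusters 1 and 10 joined had 74.7 and 129 CPM, a ratio of 1.72 (1.52 to 1.96), on the other side of 1 from cluster 1 alone. With the basal-like clusters weighted alike, an alternative added after the data were seen, the log2 ratio was -1.14 in place of 0.74.

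Ces1d (chr8:93166068-93197838, minus strand) encodes a carboxylesterase that hydrolyses triglycerides and drug esters. It lies among closely related carboxylesterase genes, and reads that such copies share cannot be told apart in these counts. Differentiated-like cells had 175 CPM (169 to 181) at ZT0 and 159 CPM (155 to 164) at ZT12, a ratio of 0.913 (0.876 to 0.953). In basal-like cells the levels were 40.4 CPM (36.5 to 44.5) and 18.1 CPM (15.9 to 20.6), a ratio of 0.449 (0.381 to 0.528), so in both classes the evening level was the lower one. Over all cells it was the higher one, 86.7 and 98.0 CPM. Differentiated-like cells, which had the most Ces1d of the keratinocyte classes, made up 31.4% of the cells at ZT0 and 45.4% at ZT12, and the part of that share in the value over all cells was not tested. The basal-like value rested on clusters 1 and 10, which together had 81.0 CPM at ZT0 and 37.0 CPM at ZT12, while cluster 7 had 0.923 and 0.872 CPM. Clusters were also left out when 1 library gave 80% or more of the cells, after cell numbers were scaled to each library's total. The basal-like log2 ratio was then 1.20 in place of -1.11. Clusters 2 and 7 then remained, and they had only 2 Ces1d UMIs at ZT0 and 16 at ZT12. Cluster 0 had the highest level at ZT0, 308 CPM, and 176 CPM at ZT12, a ratio of 0.572 (0.527 to 0.620), and cluster 13, led by Gzmn and Krtdap, had 80.5 and 121 CPM, a ratio of 1.51 (1.26 to 1.81). The differentiated-like ratio changed sign under 4 of 13 alternatives, with log2 ratios from -0.43 to 0.15, so its direction was not settled.

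Rgcc (chr14:79288756-79301645, minus strand) encodes a regulator of the cell cycle that binds the mitotic kinase Cdk1. Differentiated-like cells had 80.9 CPM (77.0 to 85.0) at ZT0 and 145 CPM (141 to 149) at ZT12, a ratio of 1.80 (1.70 to 1.90). Basal-like cells had 95 UMIs at ZT0, 9.64 CPM (7.80 to 11.8), and 659 at ZT12, 49.9 CPM (46.2 to 53.9), a ratio of 5.18 (4.17 to 6.496). Because the basal ratio was the larger, the excess of differentiated-like over basal-like cells was 8.40 (6.83 to 10.4) at ZT0 and 2.91 (2.68 to 3.16) at ZT12. Within the basal layer the evening level was 94.9 CPM in cluster 1, 16.0 in cluster 2 and 5.67 in cluster 7. The ratios were 3.44 (2.18 to 5.76), 1.95 (1.21 to 3.25) and 4.10 (1.13 to 22.4), each less than the class ratio. The last rests on 3 UMIs at ZT0 and 13 at ZT12. Clusters 1 and 10 joined had 14.1 and 94.3 CPM, a ratio of 6.68 (5.20 to 8.70). In differentiated-like cells the level at ZT12 was 49.2 CPM in cluster 3, 197 in cluster 4 and 230.4 in cluster 11. Simple epithelial-like cells had 35 UMIs at ZT0 and 14 at ZT12, a ratio of 0.534 (0.266 to 1.02) whose interval included 1.

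**Figure D2:**
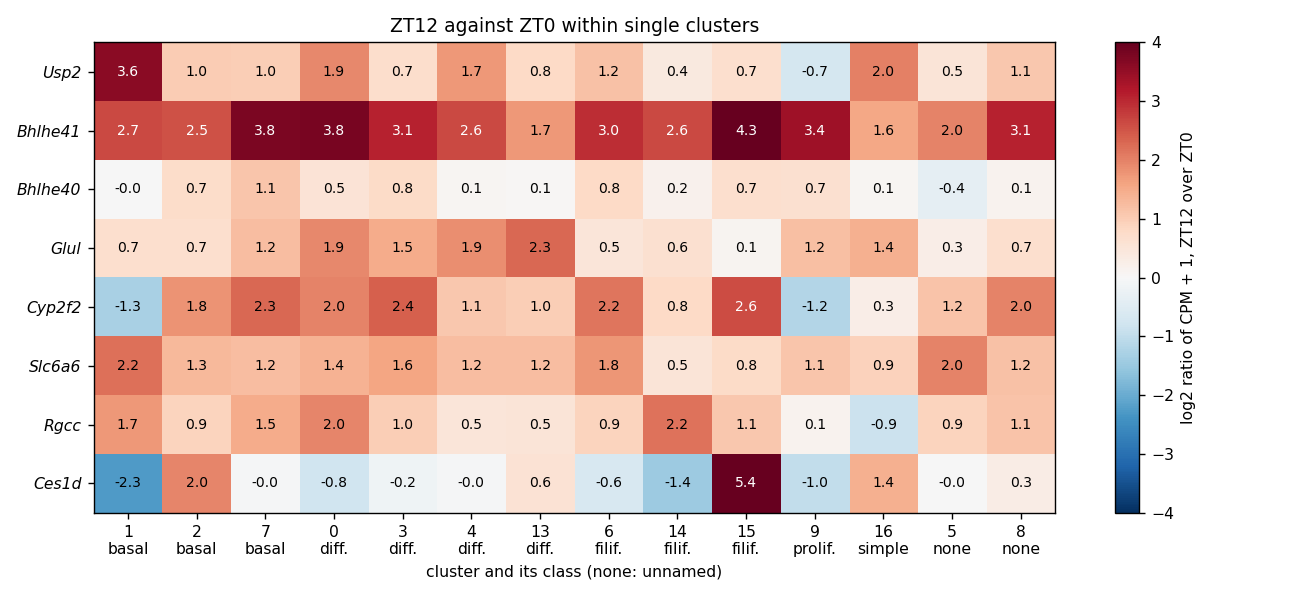
Log2 ratio of CPM + 1, ZT12 over ZT0, for each gene (rows) in each cluster with at least 20 cells from both libraries (columns, with the class of the cluster). Red is higher at ZT12 and blue higher at ZT0. Bhlhe41, Glul and Slc6a6 are red in all 14 clusters, while Ces1d and Cyp2f2 hold both colours within the basal-like clusters.

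The layers were also ordered by a grading that did not use the 8 genes. Cells of the keratinocyte classes, which the clusters define, were ranked by the log2 ratio of Krt13 and Krt4 to Krt5 and Krt15 UMIs, each sum plus 1, and cut into 5 bins of equal size, pooling both libraries; a bin is a range of the grading and not a cell type. Slc6a6 was lower in each bin than in the one before, 391 CPM in bin 1 and 11.2 in bin 5 at ZT0, and 1072 and 28.4 at ZT12. Cyp2f2 was the reverse, 5.01 and 432 CPM at ZT0, and 8.09 and 794 CPM at ZT12. Glul and Bhlhe41 peaked in bin 2 in both libraries, Glul at 130.0 and 334 CPM and Bhlhe41 at 6.47 and 75.3 CPM. In bin 5 Bhlhe41 had 0 UMIs at ZT0 and 137 at ZT12, and the interval of the ratio lay above 21.4. With 3 UMIs over all ZT0 cells of the bin taken as a floor, the ratio was 26.7. Usp2 was level over bins 1 to 3 at ZT0 and higher in bins 4 and 5, 25.1, 23.7, 23.9, 32.3 and 43.0 CPM. At ZT12 it was higher from bin 2 on, 24.3, 69.7, 91.7, 104 and 112 CPM. The Usp2 ratio was 0.968 (0.791 to 1.18) in bin 1 and 3.83 (3.22 to 4.59) in bin 3. With 10 bins in place of 5, it was 0.642 (0.458 to 0.889) in the first and 1.26 (0.961 to 1.66) in the second. Proliferating-like cells, whose Usp2 ratio was 0.771 (0.593 to 0.993), made up 20.3% of bin 1 and basal-like cells 67.2%, and their part in its ratio was not tested. All 3 basal-like clusters with enough cells had a ratio of 2.06 or more. Ces1d had ratios of 0.395 (0.240 to 0.628), 0.608 (0.499 to 0.740), 0.630 (0.563 to 0.704), 0.853 (0.796 to 0.915) and 1.15 (1.09 to 1.22) in bins 1 to 5, lower at ZT12 in 4 of them and higher in bin 5.

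**Figure D3:**
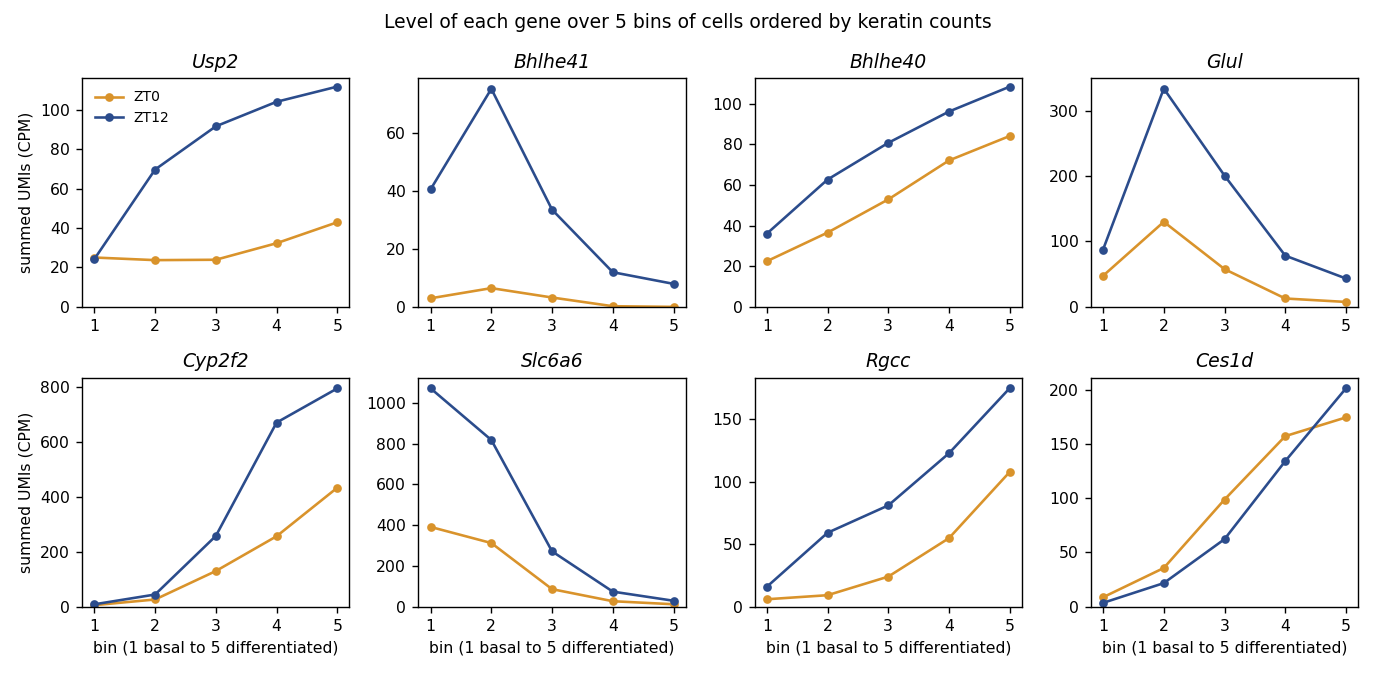
Level of each gene (CPM, vertical axis from 0, its own scale in each panel) over 5 bins of the keratinocytes ordered from basal to differentiated keratin counts (horizontal axis). Each point sums the cells of 1 library in 1 bin, and lines join the bins of a library. Usp2 lines meet in bin 1 and part from bin 2 on, and the Ces1d lines cross between bins 4 and 5.

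Levels can change through the number of cells with the transcript or through the amount in each, and cells of the libraries differed in depth. Each cell was therefore thinned to 10000 UMIs and cells below that were left out, which kept 418 and 670 basal-like cells and 489 and 1161 differentiated-like cells at ZT0 and ZT12. Median depths before thinning were 22910 and 18532 UMIs in basal-like cells and 37642.5 and 29563 in differentiated-like cells. In basal-like cells, 90.4% had a UMI of Slc6a6 at ZT0 and 98.8% did at ZT12. Usp2 was found in 9.81% and 36.9% of basal-like cells and in 27.6% and 59.2% of differentiated-like cells. Bhlhe41 was found in 6.22% and 45.5% of basal-like cells, with 26 and 305 cells, and in 0.409% and 12.7% of differentiated-like cells. Without thinning, these shares were 22.6% and 50.1% for Usp2 and 12.7% and 58.0% for Bhlhe41 in basal-like cells. For Glul the share went from 44.7% to 59.0% in basal-like and from 14.1% to 38.4% in differentiated-like cells. Rgcc gave 5.02% and 28.5%, and 37.0% and 63.4%. Cyp2f2 was in 65.6% and 79.9% of differentiated-like cells, and Ces1d in 59.5% and 57.6%. A share also rises with the amount per cell, so these shares do not separate the number of cells from the amount. In basal-like cells with a UMI, the mean count was 1.10 at ZT0 and 1.79 at ZT12 for Usp2. It was 2.68 and 4.88 for Glul and 4.99 and 10.9 for Slc6a6. For Ces1d it went the other way, 2.13 and 1.52.

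Free RNA in the droplets can give a cell a UMI of a gene it does not express, so the same thinned shares were read where a gene was lowest. In basal-like cluster 7, Cyp2f2 had a UMI in 0 of 102 cells at ZT0 and 5 of 127 cells at ZT12. Rgcc had a UMI there in 0 of 102 cells and 6 of 127 cells, and Ces1d in 2 of 102 cells and 2 of 127 cells. In basal-like cluster 2, Cyp2f2 had a UMI in 4 of 107 cells and 17 of 230 cells. Its ZT12 share there, 7.39% (4.36% to 11.6%), had an interval that overlapped that of cluster 7, 3.94% (1.29% to 8.95%). Whether the Cyp2f2 UMIs of cluster 2 came from free RNA was not tested. In differentiated-like cluster 13, Glul had a UMI in 0 of 59 cells and 3 of 54 cells, Bhlhe41 in 0 of 59 cells and 2 of 54 cells, and Slc6a6 in 3 of 59 cells and 7 of 54 cells. The median depth was 17673 UMIs in cluster 7 and 42815 in cluster 13, over both libraries. For Usp2 the simple epithelial-like cells gave 0 of 34 and 3 of 30 cells. The differentiated-like share of Bhlhe41 at ZT0 was 0.409%, 2 of 489 cells. No level of free RNA was measured for any gene, and whether these UMIs came from it was not tested. At ZT12 cluster 0 gave 111 of the 148 differentiated-like cells with a Bhlhe41 UMI, a share of 24.1% of its own cells. The ZT12 shares in clusters 3, 4 and 11 were 6.30%, 3.39% and 7.02%. Their intervals overlapped that of cluster 13, 3.70% (0.452% to 12.7%), which had 54 cells. In CPM, the intervals of clusters 3 and 11, 5.72 to 9.73 and 6.13 to 10.7, lay above that of cluster 13, 0.762 to 5.47. The interval of cluster 4, 3.83 to 6.89, overlapped it. Whether the Bhlhe41 UMIs of these clusters came from expression or from free RNA was not tested.

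**Figure D4:**
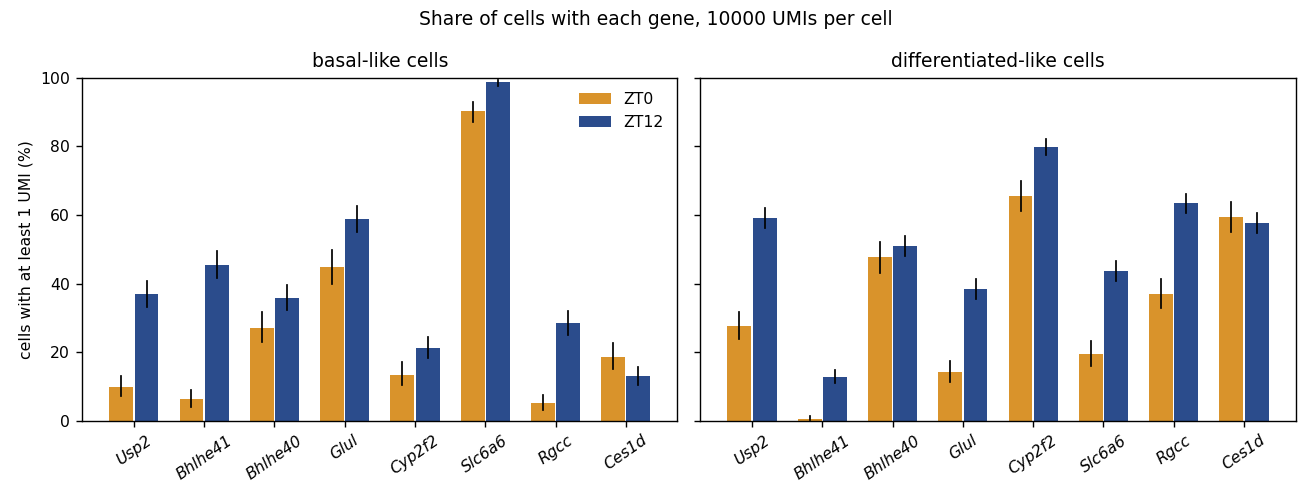
Share of cells with at least 1 UMI of each gene (percent, vertical axis) after every cell was thinned to 10000 UMIs, in basal-like cells (left) and differentiated-like cells (right). Bars are ZT0 and ZT12, 1 library each, and lines are exact binomial 95% intervals. Slc6a6 is in 90.4% or more of basal-like cells at both times, and Ces1d is the only gene with a lower share at ZT12 in both classes.

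Cells with several of the genes made up a larger share of the ZT12 library. After thinning, 4 or more of the 8 genes had a UMI in 14.4% of basal-like cells in the ZT0 library and in 44.8% in the ZT12 library. Among differentiated-like cells the shares were 29.7% and 64.5%. The median number of the 8 genes found in a cell was 2 and 3 in basal-like cells and 3 and 4 in differentiated-like cells. The 8 genes were chosen from this contrast, so these shares and medians carry no evidence of their own.

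Set among all genes, a gene was called higher at ZT12 when its mean level was at least 5 CPM, its CPM + 1 was at least 2 times higher and the interval of its ratio lay above 1. Over all cells 27 of 9543 genes met this, 0.283%, and 238, 2.49%, met it in the other direction; 6 of the 8 genes were among the 27, all but Bhlhe40 and Ces1d. In basal-like cells 65 of 9598 genes, 0.677%, met it, and so did 5 of the 8, Usp2, Bhlhe41, Glul, Slc6a6 and Rgcc. Ces1d was 1 of the 100 genes, 1.04%, called higher at ZT0 there. In differentiated-like cells 40 of 8937 genes, 0.448%, met it, and so did 4 of the 8, Usp2, Bhlhe41, Glul and Slc6a6. Since the genes were proposed from this contrast, these counts carry no evidence of their own. The median log2 ratio of the 8 genes was 1.22 over all cells, 1.21 in basal-like and 1.25 in differentiated-like cells, beside -0.03, -0.03 and 0.03 for all genes measured. By size of the ratio over all cells, Bhlhe41 ranked 4 and Usp2 11 of the 9543 genes, Bhlhe40 ranked 167 and Ces1d 1314. Without cluster 10, whose cells came almost all from ZT0, the basal-like log2 ratios were 2.67 for Usp2, 3.44 for Bhlhe41, 2.06 for Glul and 1.14 for Slc6a6. Bhlhe40 then passed the 2-fold limit, with 1.04 in place of 0.61. With cluster 10 the first 4 were 2.16, 3.17, 1.16 and 1.25. Without clusters of which 1 library gave 80% or more of the cells, scaled to each library's total, basal-like clusters 2 and 7 remained. Usp2 at 0.98 and Glul at 0.89 were then under the 2-fold limit in basal-like cells, and Rgcc was at 1.14 in place of 2.26. In differentiated-like cells without cluster 12, Cyp2f2 passed the limit, with 1.502 in place of 0.96.

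**Figure D5:**
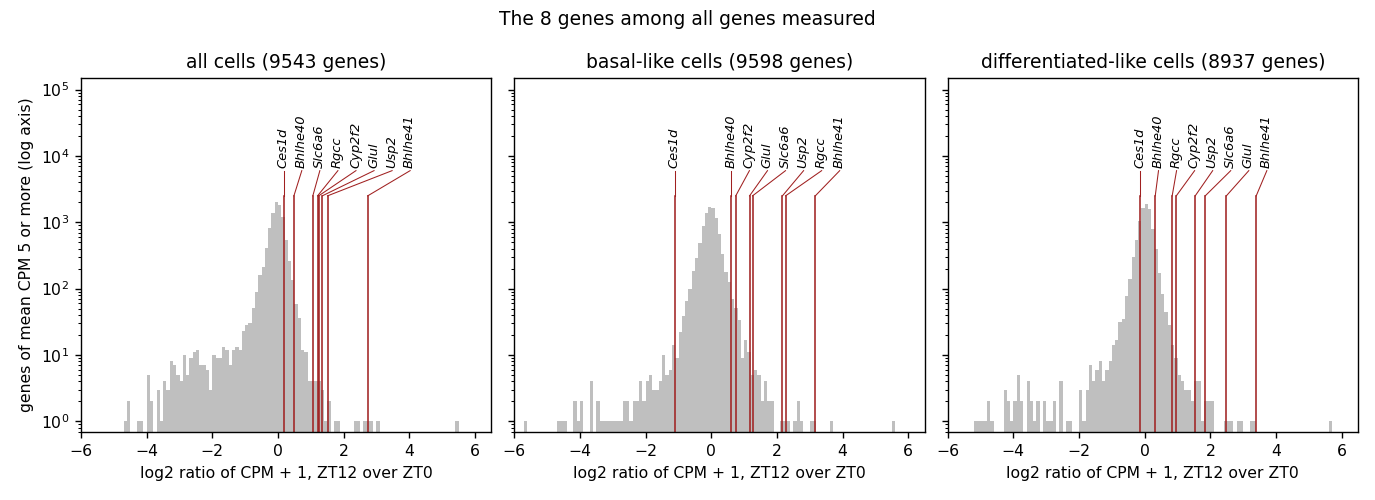
Number of genes (vertical log axis) by log2 ratio of CPM + 1, ZT12 over ZT0 (horizontal axis), over all cells, basal-like cells and differentiated-like cells, for genes of mean CPM 5 or more. Red lines mark the 8 genes. Bhlhe41 lies farthest to the right of the 8 in each panel, and Ces1d lies left of 0 in both classes.

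Other genes of the same pathways were counted from lists, a gene being counted when its CPM + 1 differed by 1.5 times or more. Over all cells 1.03% of genes were higher at ZT12 and 4.82% lower by this measure; in basal-like cells the shares were 2.52% and 3.60%, and in differentiated-like cells 1.61% and 2.25%. All 6 evening clock genes measured were higher at ZT12 in all cells and in both classes, among them the D-box factors Dbp, from 3.53 to 194 CPM, a ratio of 54.8 (47.2 to 64.0), and Tef, from 11.5 to 90.7 CPM, a ratio of 7.88 (7.23 to 8.60). In the morning list 3 of 3 were lower over all cells, among them the repressor Cry1, from 34.05 to 15.4 CPM, a ratio of 0.453 (0.419 to 0.490). Both Hes repressors measured, which share the Orange domain with Bhlhe40 and Bhlhe41, were under the limit over all cells, Hes1 from 140.0 to 197 CPM, a ratio of 1.40 (1.36 to 1.45), and Hes6 from 22.3 to 28.0 CPM, a ratio of 1.26 (1.16 to 1.35). In basal-like cells Hes6 passed it, from 20.7 to 34.2 CPM, a ratio of 1.65 (1.40 to 1.96).

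Of 23 other ubiquitin-specific proteases measured, none was higher at ZT12 over all cells and 1 was lower, the interferon-induced Usp18, from 14.9 to 1.98 CPM, a ratio of 0.133 (0.110 to 0.161). The median log2 ratio of that list was -0.02. Usp18 was chosen for mention after its value was seen, as were Slc1a3, Cad, Ppat, Cyp26b1, Lipa, Wee1 and Cdc25b below. Among 5 proteins reported as Usp2 substrates, the transcript of Ccnd1, cyclin D1, was higher, from 263 to 419.7 CPM, a ratio of 1.60 (1.56 to 1.63), while Fasn, fatty acid synthase, went from 60.2 to 67.9 CPM, a ratio of 1.13 (1.08 to 1.18), and Egfr from 51.3 to 47.6 CPM, a ratio of 0.929 (0.882 to 0.979). In glutamine and glutamate metabolism 2 of 21 genes were higher over all cells and none lower, the alanine aminotransferase Gpt, from 47.2 to 72.8 CPM, a ratio of 1.54 (1.47 to 1.62), and the glutamate transporter Slc1a3, from 11.5 to 18.1 CPM, a ratio of 1.58 (1.43 to 1.74). In basal-like cells the 2 of 21 were Slc1a3 and Cad, which starts pyrimidine synthesis, and in differentiated-like cells 2 of 20, Gpt and Ppat, which starts purine synthesis. Beside Slc6a6, none of 10 genes for taurine synthesis and other osmolytes passed the limit in any of the 3 sets of cells. Csad, which makes the taurine precursor hypotaurine, went from 36.4 to 29.1 CPM, a ratio of 0.801 (0.751 to 0.854), and Aqp3, the water and glycerol channel, from 805 to 854 CPM, a ratio of 1.06 (1.05 to 1.07).

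Among 14 measured cytochrome P450 and drug metabolism genes, none passed over all cells; Por, the reductase that passes electrons to microsomal P450 enzymes, went from 60.0 to 89.3 CPM, a ratio of 1.49 (1.42 to 1.56), and Ephx1, an epoxide hydrolase, from 37.0 to 52.6 CPM, a ratio of 1.42 (1.34 to 1.51). In basal-like cells 2 of 16 were higher, Por, from 41.3 to 65.4 CPM, a ratio of 1.58 (1.41 to 1.79), and Ephx1, from 49.4 to 77.6 CPM, a ratio of 1.57 (1.41 to 1.75), and the retinoic acid hydroxylase Cyp26b1 was lower, from 13.6 to 5.76 CPM, a ratio of 0.424 (0.315 to 0.566). None of 11 carboxylesterase and lipid hydrolase genes passed over all cells or in differentiated-like cells. In basal-like cells 1 did, the lysosomal lipase Lipa, from 9.74 to 5.76 CPM, a ratio of 0.591 (0.432 to 0.808). Ces2g, another carboxylesterase gene, went from 111 to 120.1 CPM, a ratio of 1.08 (1.05 to 1.12) over all cells. For the mitotic kinases and their partners, 7 of 9 were lower at ZT12 over all cells, including Cdk1, the partner of Rgcc, from 69.7 to 8.32 CPM, a ratio of 0.119 (0.109 to 0.131). The proliferating-like class held 190 cells at ZT0 and 91 at ZT12, and the part of that difference in the list's count was not tested. Within basal-like cells, 1 of the 5 measured was higher, the Cdk1-inhibiting kinase Wee1, from 23.1 to 73.3 CPM, a ratio of 3.17 (2.74 to 3.68), and none was lower. Ccnb1 of this list was itself a marker of the proliferating-like class, and Cdk1 was low in basal-like cells, 7.10 and 8.34 CPM. The basal-like count therefore does not cover mitotic cells. In differentiated-like cells 2 of 9 were measured and both were higher, Wee1, from 4.06 to 14.5 CPM, a ratio of 3.56 (2.81 to 4.56), and Cdc25b, a phosphatase that activates Cdk1, from 9.35 to 17.9 CPM, a ratio of 1.92 (1.63 to 2.27). The median log2 ratio of the list was 0.24 in basal-like and 1.24 in differentiated-like cells.

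Patterns across cells were compared over 32 units, each the cells of 1 cluster from 1 library with at least 20 cells. The units share 2 libraries and differ in depth, so each Pearson r of log2 CPM + 1 is a description. Units of both times enter each r, and the 8 genes were chosen by their ZT12 against ZT0 values. The r between them therefore carries no evidence of its own, and none within 1 library is given. Among the 8 genes, Cyp2f2 was most like Ces1d, r = 0.87, and Rgcc, r = 0.87, and Bhlhe41 most like Glul, r = 0.72. Cyp2f2 and Slc6a6 had r = -0.47. Of 5805 genes searched, those most like Slc6a6 were the hemidesmosome and basal adhesion genes Dst, r = 0.96, Itgb4, r = 0.92, and Col17a1, r = 0.92. For Cyp2f2 they were Eif4ebp1, r = 0.89, Hcar2, r = 0.89, and Idh1, r = 0.86, and for Rgcc Eif4ebp1, r = 0.90, Prdx6, r = 0.90, and Hadh, r = 0.87. Ces1d was most like Itpr2, r = 0.89, Hcar2, r = 0.88, and H2-Ke6, r = 0.85. Glul was most like Sat1, r = 0.83, Fermt1, r = 0.83, and Dcxr, r = 0.82, and Bhlhe41 like Tmsb4x, r = 0.81, Sat1, r = 0.79, and Tbc1d15, r = 0.79. Bhlhe40 was most like Tcim, r = 0.85, Laptm4a, r = 0.83, and Emp1, r = 0.81. Usp2 had the loosest matches, Ssx2ip, r = 0.78, Slc16a9, r = 0.76, and Krt32, r = 0.72.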

How the data were processed

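The authors deposited, per the file headers, 1 matrix of UMI counts per library, unnormalised, with whole numbers per gene and cell. The submitters' processing notes name Cell Ranger 2.1.1 and the mouse build mm10, while the file headers name Cell Ranger 4.0.0. The annotation behind the matrices was not stated in these sources. Gene positions come from the mouse annotation supplied on mm10, and promoters from RefSeq on GRCm38.p6.

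Barcodes were kept with 500 genes or more and less than 10% of UMIs from mitochondrial genes, which removed 129 barcodes at ZT0 and 191 at ZT12. The doublet caller Scrublet marked 4 and 8 barcodes, so doublets were in effect not removed. Both libraries were clustered together in scanpy 1.11.5 (2000 variable genes without the 8 genes and without clock genes, 30 principal components, 15 neighbours, leidenalg 0.10.2 at resolution 1), which gave 21 clusters. A cluster was named after the marker list with the highest score when that score was at least 0.3 and at least 0.2 above the next. It also needed at least 12 cells, enough detected markers and enough depth. No other list could have more genes among the 10 leading genes of the cluster. The clusters had been seen when this naming rule and the joining of clusters 1 and 10 were set. Clusters 5, 8 and 20 stayed unnamed, 228 cells at ZT0 and 293 at ZT12. Cluster 5 was a near tie, and cluster 20 had too few cells. Cluster 8, with 110 and 109 cells, scored highest for basal-like, 0.834, but another list had more of its leading genes.

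Counts were summed per library and set of cells and divided by the summed total, in CPM. With 1 library per time there was no test. Intervals came from scipy 1.17.1, exact Poisson for levels, Clopper-Pearson for shares and conditional binomial for ratios, at 95%. The script for ratios and calls was tested on simulated counts. TMM factors from edgeR 4.0.16 served as another scaling. The genes named in the text are the 8, up to 4 of each list with the largest change over all cells at a mean of at least 20 CPM, and the 3 most alike of each. The 8 genes and the lists were chosen with earlier results of these data known.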

Additional observations from a re-analysis of the deposited data

Results flagged for a closer look

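Usp2 differed in direction between cell classes. Its ZT12 over ZT0 ratio was 4.74 in the basal-like class, 2.95 in the differentiated-like class and 1.83 in the filiform-like class, each with an interval above 1, and 0.771 in proliferating-like cells, with an interval below 1. The proliferating-like levels rest on 328 UMIs in 190 cells at ZT0 and 76 UMIs in 91 cells at ZT12. Of these cells, cluster 9, led by mitotic genes, gave 179 and 38, and cluster 17, led by replication genes, 11 and 53. For cluster 9 by itself, the Usp2 ratio was 0.601, with an interval from 0.383 to 0.904, resting on 319 morning and 25 evening UMIs. Cluster 17 had too few ZT0 cells for a ratio. The part of the shift between these clusters in the class ratio was not tested. The difference between the classes was not tested, since each time is 1 library.

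Ces1d also had ratios on both sides of 1. It was 2.69 in simple epithelial-like cells, 0.449 in basal-like cells and 0.913 in differentiated-like cells. Simple epithelial-like cells had 76 UMIs of it at ZT0 and 153 at ZT12, in 35 cells each. This difference was not tested either.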

How the results depend on the processing

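No paired analysis was possible because each time is 1 library and no result comes from a test. Over all cells, the ratios of all 8 genes kept their direction under the 5 alternatives (stricter cell filter, TMM factors, cells weighted alike, the 5% highest doublet scores left out, thinning). In basal-like cells 6 of 8 kept it under all 13 alternatives. Ces1d had a log2 ratio of 1.20 without clusters of 80% or more from 1 library, with cell numbers scaled to each library's total. Cyp2f2 ranged from -1.14 to 2.03, below 0 only with clusters weighted alike. Both alternatives were added after the data were seen. Calls in basal-like cells were also lost for Glul with clusters weighted alike, 0.70, or each library clustered alone, 0.79, and for Usp2 with keratin bins in place of clusters, 0.95. Values that moved by over 1.5 times included Ces1d at -0.32 without cluster 10, Ces1d at -2.11 and Rgcc at 1.58 with clusters weighted alike, and Cyp2f2 at 0.07 with each library clustered alone. In differentiated-like cells 7 of 8 kept their direction, and Ces1d did not, while Cyp2f2 was at 1.58 with clusters weighted alike. With each library clustered alone, 2 in place of 4 of the 8 genes were called higher in differentiated-like cells; Slc6a6 was then at 0.61, and that clustering kept 78.0% and 60.6% of the class at ZT0 and ZT12. Counts of genes past the 2-fold limit followed the CPM minimum, since fewer or more genes then enter. With a minimum of 50 CPM they were 9 higher and 24 lower at ZT12 over all cells, 14 and 13 in basal-like and 10 and 16 in differentiated-like cells. With no minimum they were 41 and 417, 118 and 196, and 62 and 166. At 50 CPM, 1 list had a median at least 1.5 times lower over all cells, and 1 a median at least 1.5 times higher in differentiated-like cells. With 1 library per time, the spread between animals cannot be had, and a cluster mostly of 1 library cannot be told apart from that library.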
